A study of Mus musculus with 4 samples.

Results

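The genes described here encode the enzymes of the tricarboxylic acid (TCA) cycle, the reactions that fill and drain it (anaplerosis and cataplerosis), the enzymes that bring glutamine carbon into it (glutaminolysis), and mitochondrial carriers for its intermediates. They are 32 genes taken by symbol for the function of their products, each matching 1 of the 54838 gene rows in the files. The study sequenced RNA from Hepa1-6, a mouse hepatoma cell line, in 2 groups of 2 libraries. NC 1 and NC 2 carry the wild-type Acvr2a gene, and KO 1 and KO 2 carry the Acvr2a knockout, Acvr2a being a type II receptor for activins. Knockout cells are described as subclones, and nothing says whether KO 1 and KO 2 are separate subclones, what NC received, or whether replicates are separate cultures, so the p-values measure the spread between these samples only, which may be technical. The series title frames the study around lactate, glycolysis and regulatory T cells.

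The cycle runs in the mitochondrial matrix. It condenses acetyl-CoA with oxaloacetate to citrate, oxidises citrate back to oxaloacetate through isocitrate, 2-oxoglutarate, succinate, fumarate and malate, and passes the electrons to the respiratory chain. In liver it also supplies carbon for glucose and lipid synthesis, and glutamine can enter it through glutaminase and glutamate dehydrogenase as 2-oxoglutarate. Several steps have a mitochondrial and a cytosolic isoenzyme encoded by different genes, which lets citrate, malate and aspartate carry carbon and reducing equivalents across the inner membrane.

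Library totals lay between 11597923 and 13910582 counts. Across the 12510 genes that passed the filter on low counts, 4741 (37.9%) differed between KO and NC in edgeR's quasi-likelihood test at an adjusted p of 0.05, 2459 higher (51.9% of calls) and 2282 lower; on the deposited TPM scale the share of higher calls was 68.0%. Counts of Acvr2a itself were 81 and 108 for NC, against 75 and 97 for KO (log2 fold change -0.21, SE 0.20, adjusted p = 0.433), so its RNA did not separate the groups, and every direction below is that of the libraries labelled KO. Of 16 hepatocyte markers 13 were tested, with Alb between 473 and 713 TPM and Afp between 72.9 and 167.4 TPM, while Ttr and Ahsg had at most 2 counts in any library. Of these 13, 6 were lower in KO and 2 higher (46.2% and 15.4%, against 18.2% and 19.7% of all genes). The summed level of the 16 was 5857 to 6102 TPM in NC and 4568 to 5057 in KO. The leukocyte list (8 genes, 1 tested) summed to 0.71 to 1.23 TPM in NC and 1.65 to 1.93 in KO with Cd3e at 0 counts, and the endothelial list (4 genes, 1 tested) to at most 0.48 TPM with Cdh5 and Tek at 0 counts. Among 6 stromal markers, 3 were tested and 2 of them were higher in KO (66.7%, against 19.7% of all genes). The stromal list summed to 1034 to 1097 TPM in NC and 1236 to 1240 in KO, nearly all of it Dcn. Mitochondrially encoded genes took 7.46% to 8.13% of counts in NC and 6.78% to 8.05% in KO. The part of these differences in the results below was not tested.

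Promoter sequence is shown for 4 genes of the set that fell in KO and for 1 that rose, since these genes carry the changes described below. The sequences are from RefSeq on GRCm38.p6, whose table held 28 of the 32 genes with 35 transcript starts. Each runs 5′ to 3′ on the gene's strand and ends at the base before the transcript start; the stretch covers 250 bases, or 233 for Glud1, where the rest overlaps an exon of Shld2. Ogdh has 6 starts in the table and Pcx 2, and the most upstream is shown for both. Capitals mark matches on either strand to the ETS core CCGGAAG, the NRF-1 core GCATGCGC, the CCAAT box CCAAT, the E-box CACGTG, the CRE TGACGTCA, the C/EBP-ATF element TGATGNAA and the GC box GGGCGG.
Glud1, chr14:34310494-34310726, plus strand: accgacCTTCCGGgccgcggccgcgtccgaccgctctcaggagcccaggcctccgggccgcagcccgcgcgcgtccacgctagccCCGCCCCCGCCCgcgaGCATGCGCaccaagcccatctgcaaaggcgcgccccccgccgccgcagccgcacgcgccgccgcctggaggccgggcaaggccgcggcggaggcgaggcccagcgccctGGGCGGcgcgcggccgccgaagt
Ogdh, chr11:6291347-6291596, plus strand: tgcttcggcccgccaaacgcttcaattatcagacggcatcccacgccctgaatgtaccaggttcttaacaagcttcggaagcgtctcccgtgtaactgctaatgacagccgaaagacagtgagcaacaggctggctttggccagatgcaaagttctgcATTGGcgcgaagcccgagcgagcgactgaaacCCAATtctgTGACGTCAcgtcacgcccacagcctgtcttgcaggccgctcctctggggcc
Fh1, chr1:175625636-175625885, minus strand: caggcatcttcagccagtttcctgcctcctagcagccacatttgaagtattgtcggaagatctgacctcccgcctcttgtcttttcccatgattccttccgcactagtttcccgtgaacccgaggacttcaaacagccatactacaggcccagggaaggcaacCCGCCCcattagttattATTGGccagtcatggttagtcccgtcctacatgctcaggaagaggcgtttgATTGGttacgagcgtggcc
Pck2, chr14:55540016-55540265, plus strand: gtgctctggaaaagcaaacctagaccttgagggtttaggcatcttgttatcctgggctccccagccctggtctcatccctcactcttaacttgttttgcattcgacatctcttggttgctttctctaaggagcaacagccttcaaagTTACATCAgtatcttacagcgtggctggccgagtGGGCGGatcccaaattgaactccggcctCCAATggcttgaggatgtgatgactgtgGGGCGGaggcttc
Pcx, chr19:4510222-4510471, plus strand: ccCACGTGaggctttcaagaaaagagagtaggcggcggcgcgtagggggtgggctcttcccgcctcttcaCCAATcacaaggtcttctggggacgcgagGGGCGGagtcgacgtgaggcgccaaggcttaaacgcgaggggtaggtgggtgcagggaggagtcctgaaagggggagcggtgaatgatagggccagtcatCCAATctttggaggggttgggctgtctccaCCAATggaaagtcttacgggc

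The motifs differed between these genes. The Glud1 stretch held an ETS core, an NRF-1 core and 3 GC boxes and no CCAAT box, the Fh1 stretch 2 CCAAT boxes and 1 GC box, and the Ogdh stretch 2 CCAAT boxes and a CRE. The Pck2 stretch held the C/EBP-ATF element, a CCAAT box and 2 GC boxes, and the upstream Pcx stretch 3 CCAAT boxes, an E-box and a GC box. The 250 bases before the other Pcx start, at base 4594319, held none of the motifs. Those before the Ogdh starts furthest downstream held an NRF-1 core and an E-box and no CCAAT box or CRE. Which starts these cells use was not tested. Over the 250 bases before all 35 starts of the set, the CCAAT box was found at 19 (54.3%), against 33.8% of the 32851 starts in the table, and the GC box at 20 (57.1%), against 32.7%. The NRF-1 core was at 4 starts (11.4%, against 2.26%), the CRE at 4 (11.4%, against 1.55%), the E-box at 5 (14.3%, against 6.02%), the ETS core at 3 (8.57%, against 6.91%) and the C/EBP-ATF element at 3 (8.57%, against 3.45%). Starts of 1 gene overlap (all 4 NRF-1 matches lie at 3 genes and all 4 CRE matches at 2), and a match is a description of letters, not of a bound site. The 32851 starts were not limited to genes that passed the filter on low counts, as 30 of the 32 genes of the set did. The part of this in the higher shares was not tested.

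Most genes of the set were lower in KO, by less than 2-fold. Of the 32 genes 30 passed the filter, and 25 of these 30 had a negative log2 fold change (83.3%, against 50.4% of all genes tested). The test called 14 of 30 (46.7%, against a background of 37.9%): 12 were lower in KO (40.0%, against 18.2%) and 2 were higher (6.67%, against 19.7%). The median log2 fold change was -0.23, against -0.004 over all genes tested, and the range was -0.72 for Glud1 to 0.78 for Pcx. NC and KO libraries were fully apart for 25 of the 30 genes (83.3%, against 69.4%). The count of lower genes was 6 without NC 1, 7 without NC 2, 15 without KO 1 and 8 without KO 2, and 2 on the deposited TPM scale, where of all 14 calls those of Glud1, Suclg2 and Pcx remained; the higher genes were 2 without any of these libraries and 1 on the TPM scale. The 16 genes that were not called had log2 fold changes between -0.30 and 0.092, and 13 of them were negative.

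**Figure D1:**
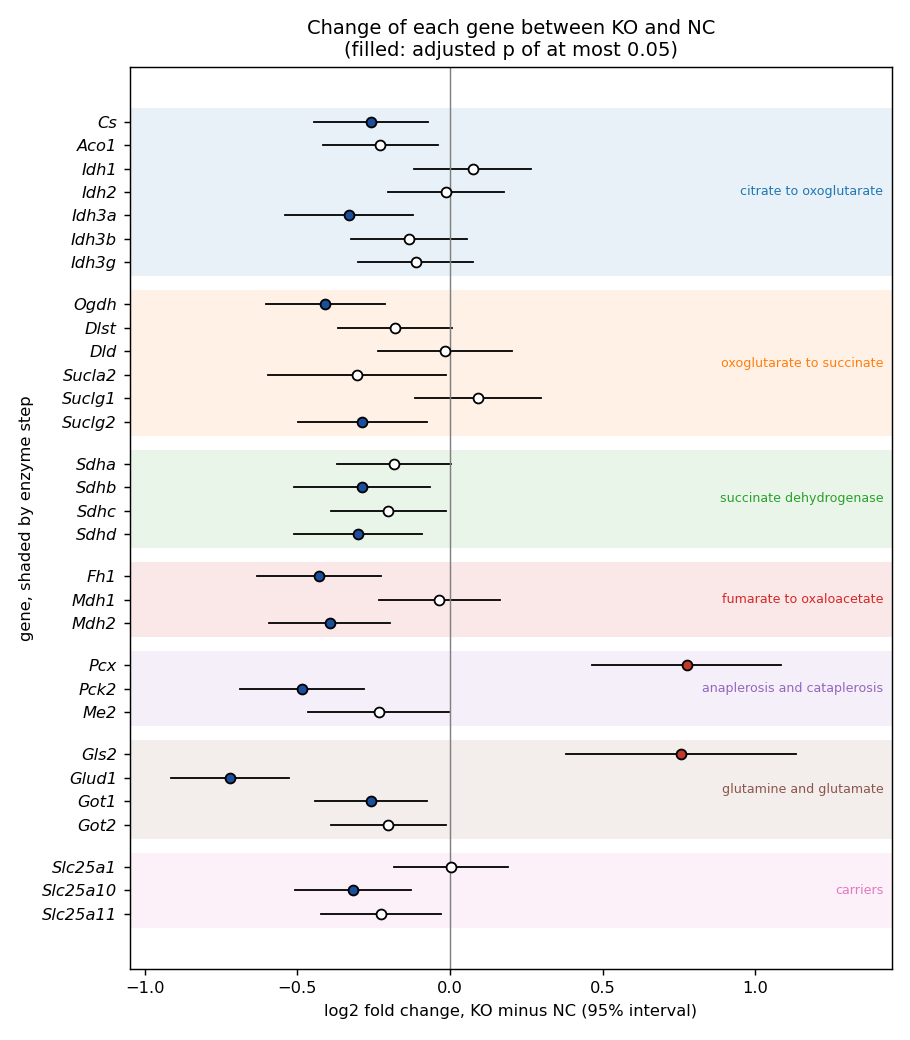
Log2 fold change, KO minus NC, of the 30 tested genes, grouped by enzyme step, with 95% intervals from edgeR's quasi-likelihood fit (2 libraries per group); filled points have an adjusted p of at most 0.05. Of the filled points 12 lie to the left of 0 and 2, Pcx and Gls2, to the right, and none is past a log2 fold change of 1 in size.

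Levels between genes were compared in TPM, which is scaled by transcript length. Mdh2 had the highest level, at 717 ± 1.61 TPM in NC (SD, n = 2). Cs at 282.8 ± 11.3 TPM, Got2 at 268.2 ± 4.48 TPM and Idh3g at 225.3 ± 8.24 TPM followed, and 9 genes were above 100 TPM in NC. At the other end Pcx was at 2.96 ± 0.39 TPM and Gls2 at 4.995 ± 1.99 TPM. Pck1, the cytosolic phosphoenolpyruvate carboxykinase of gluconeogenesis, had 0 counts in 3 libraries and 1 count in KO 1. Me3, a mitochondrial malic enzyme, had 0 counts in all 4 libraries, and a count of 0 allows a level of up to 0.217 to 0.264 CPM, depending on the library. In these bulk samples, fewer cells expressing a gene and less RNA per cell cannot be told apart.

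**Figure D2:**
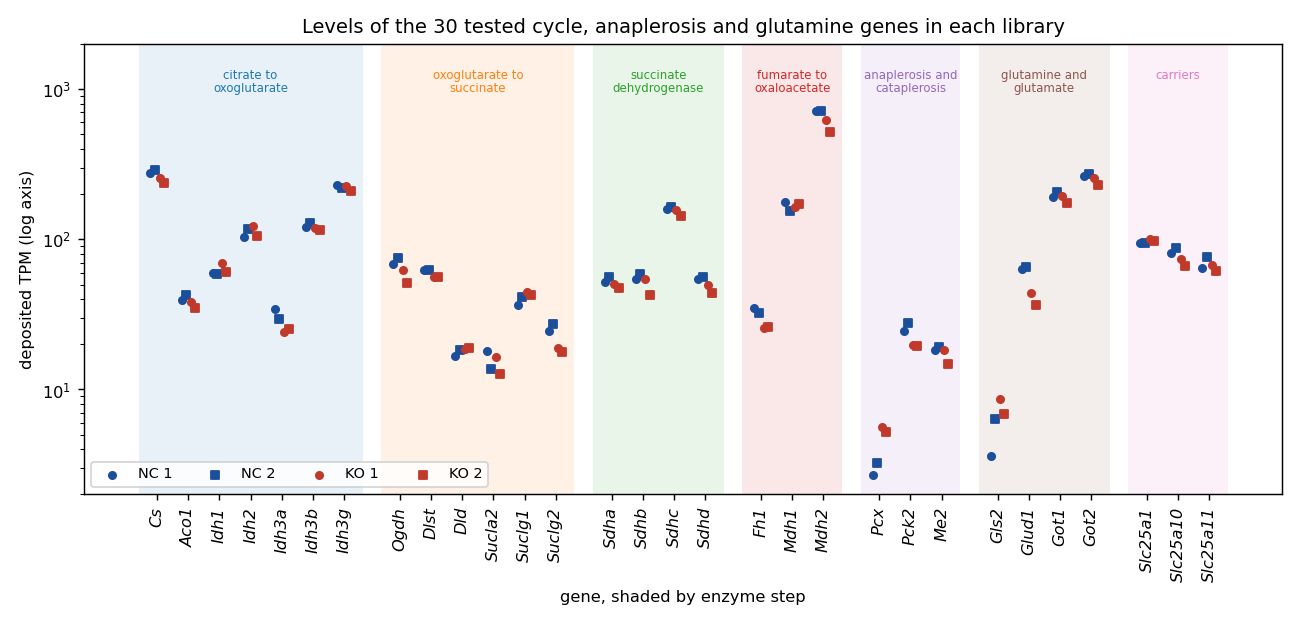
Deposited TPM on a log axis for the 30 tested genes in each of the 4 libraries, NC in blue and KO in red, grouped by enzyme step. Levels run from 2.69 TPM for Pcx in NC 1 to 718 TPM for Mdh2 in NC 2, and within most genes the 4 points lie close together.

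The first steps make citrate and oxidise it to 2-oxoglutarate, and 2 of 7 genes fell (28.6% called, against 37.9% of all genes). CPM below are counts scaled to the TMM-adjusted library size (edgeR's counts-per-million scale). Cs encodes citrate synthase, which opens the cycle. It was at 694 and 699 CPM in NC and at 592 and 572 CPM in KO, or -0.26 on the log2 scale (SE 0.09, adjusted p = 0.0270). Both KO libraries were below both NC libraries, but the value missed the threshold without NC 1 (-0.27, adjusted p = 0.0835), NC 2 (-0.25, 0.104) or KO 2 (-0.24, 0.0863). Idh3a encodes the catalytic subunit of the NAD-dependent isocitrate dehydrogenase. It was at 61.8 and 52.9 CPM in NC and at 45.7 and 45.3 CPM in KO, or -0.33 on the log2 scale (SE 0.10, adjusted p = 0.0126). The groups did not overlap, and NC 1 stood highest; without it the log2 fold change was -0.22 (adjusted p = 0.207), and DESeq2 did not call it (adjusted p = 0.0555).

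The regulatory subunits of the same enzyme had smaller values, -0.13 for Idh3b and -0.11 for Idh3g (adjusted p = 0.266 and 0.359). Idh3b overlaps exons of Nop56 on the other strand. Per length, Idh3g was 6.73 and 7.48 times Idh3a in NC and 9.29 and 8.32 times in KO, and Idh3b was 3.52 and 4.4 times Idh3a in NC and 4.93 and 4.60 times in KO. The KO ratios were thus above the NC ratios for both pairs; with 2 libraries a group an exact permutation test cannot reach 0.05, and none was run. Aco1, the cytosolic aconitase that also serves as an iron-regulatory RNA-binding protein, had a log2 fold change of -0.23 (adjusted p = 0.0517), which passed without KO 1 (-0.27, adjusted p = 0.0411). The NADP-dependent isocitrate dehydrogenase genes had overlapping groups: the cytosolic Idh1 had 0.074 (95% interval -0.12 to 0.27) and the mitochondrial Idh2 -0.012 (-0.20 to 0.18). Idh2 changed sign with the scaling used, at 0.013 under upper-quartile scaling.

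From 2-oxoglutarate to succinate, 2 of 6 genes fell (33.3% called, against 37.9% of all genes). Ogdh encodes the first component of the 2-oxoglutarate dehydrogenase complex. It was at 249 and 251 CPM in NC and at 205 and 172 CPM in KO, or -0.41 on the log2 scale (SE 0.10, adjusted p = 0.00125). Both KO libraries lay below NC, KO 2 more so, and without KO 2 the value was -0.29 (adjusted p = 0.0261). The other components of the complex were not called: Dlst, the succinyltransferase core, had -0.18 (95% interval -0.37 to 0.008), and Dld, the dihydrolipoamide dehydrogenase that the pyruvate and branched-chain complexes also use, had -0.017 (-0.24 to 0.20). Dld changed sign between scalings, at 0.009 under upper-quartile scaling and 0.039 with length offsets. Per length Dld was 0.243 and 0.245 times Ogdh in NC and 0.298 and 0.369 times in KO, with no overlap between the groups, and this shift was not tested.

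Succinyl-CoA ligase pairs the shared subunit Suclg1 with Suclg2 (GTP-forming) or Sucla2 (ATP-forming). Suclg2 was at 46.0 and 47.2 CPM in NC and at 37.2 and 39.2 CPM in KO, or -0.29 on the log2 scale (SE 0.10, adjusted p = 0.0291). The groups did not overlap. The call was lost with DESeq2 (adjusted p = 0.116) and without NC 1 (-0.31, adjusted p = 0.0700), NC 2 (-0.27, 0.129) or KO 1 (-0.25, 0.119). With the authors' effective lengths, which rose from 1985 and 1922 bases in NC to 2266 and 2455 in KO, the log2 fold change was -0.58 (adjusted p = 0.00929). Sucla2 had -0.30 with an adjusted p of 0.0940, its NC libraries differing more than those of any other gene of the set (24.4 and 19.4 CPM); it passed without NC 2 (-0.47, adjusted p = 0.0234) and without KO 1 (-0.42, 0.0370). Suclg1 had 0.092 (95% interval -0.11 to 0.30).

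Succinate dehydrogenase is both a cycle enzyme and complex II of the respiratory chain, and 2 of its 4 subunit genes fell (50% called, against 37.9% of all genes). Sdhd, a membrane anchor, was at 50.6 and 49.6 CPM in NC and at 42.3 and 38.9 CPM in KO, or -0.30 on the log2 scale (SE 0.10, adjusted p = 0.0204). Sdhb, the iron-sulphur subunit, was at 46.4 and 47.2 CPM in NC and at 41.9 and 34.7 CPM in KO, or -0.29 on the log2 scale (SE 0.11, adjusted p = 0.0372). For Sdhb, KO 2 lay well below KO 1. The flavoprotein gene Sdha had -0.18 (adjusted p = 0.116) and the second anchor gene Sdhc -0.20 (adjusted p = 0.0826). In all 4 genes both KO libraries lay below both NC libraries, where 69.4% of all genes had groups that did not overlap in either direction.

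The complex II calls were marginal. Without NC 1, NC 2 or KO 2 the log2 fold change of Sdhd was -0.30, -0.32 and -0.25 (adjusted p = 0.0850, 0.0589 and 0.139) and that of Sdhb was -0.31, -0.28 and -0.16 (adjusted p = 0.0771, 0.115 and 0.374). DESeq2 called neither (adjusted p = 0.0872 for Sdhd and 0.140 for Sdhb). Per length, Sdhb was 1.05 and 1.04 times Sdha in NC and 1.07 and 0.909 times in KO, KO 2 being the low one. Sdhc was 3.07 and 2.93 times Sdha in NC and 3.11 and 3.04 times in KO, and Sdhd was 1.04 and 0.998 times Sdha in NC and 0.977 and 0.926 times in KO. The groups overlapped for Sdhb and Sdhc and not for Sdhd, and these ratios were not tested.

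The closing steps hydrate fumarate and oxidise malate. Fh1 encodes fumarase. It was at 76.4 and 67.2 CPM in NC and at 52.9 and 53.6 CPM in KO, or -0.43 on the log2 scale (SE 0.10, adjusted p = 0.00115). Mdh2 encodes the mitochondrial malate dehydrogenase. It was at 811 and 771 CPM in NC and at 646 and 558 CPM in KO, or -0.39 on the log2 scale (SE 0.10, adjusted p = 0.00198). For both genes the groups were apart, and the calls held without each library in turn, with Fh1 between -0.52 and -0.34 and Mdh2 between -0.50 and -0.295. On the TPM scale both calls were lost, with log2(TPM + 1) giving Fh1 -0.36 (adjusted p = 0.0716) and Mdh2 -0.33 (adjusted p = 0.0971) in limma.

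The cytosolic malate dehydrogenase gene Mdh1, its partner in the malate-aspartate shuttle, was not called. It was at 147 and 127 CPM in NC and at 127 and 140 CPM in KO, and the groups overlapped. Its log2 fold change of -0.035 (95% interval -0.23 to 0.16) became 0.065 without NC 1 and 0.035 without KO 1, and 0.024 on the TPM scale. Mdh1 overlaps exons of Wdpcp on the other strand. Per length, Mdh2 was 4.04 and 4.67 times Mdh1 in NC and 3.84 and 3.02 times in KO.

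Entry into and exit from the cycle gave 1 rise and 1 fall among 3 tested genes (66.7% called, against 37.9% of all genes). Pcx encodes pyruvate carboxylase, which makes oxaloacetate from pyruvate and is the main anaplerotic enzyme of liver. It was at 9.76 and 11.3 CPM in NC and at 18.4 and 17.9 CPM in KO, or 0.78 on the log2 scale (SE 0.15, 95% interval 0.47 to 1.09, adjusted p = 0.000195). Both KO libraries were well above both NC libraries, on 111 and 157 counts in NC and 242 in each KO library. In GRCm38, Pcx spans bases 4510472 to 4621752 of chromosome 19 (plus strand) and shares exons with no other gene. It passed under each of the 13 alternatives tried, with log2 fold changes of 0.67 to 0.89.

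Pck2 encodes the mitochondrial phosphoenolpyruvate carboxykinase, which withdraws oxaloacetate. It was at 60.1 and 62.5 CPM in NC and at 44.5 and 43.2 CPM in KO, or -0.48 on the log2 scale (SE 0.10, adjusted p = 0.000338). Replicates were close and the groups far apart, and the value lay between -0.52 and -0.45 without each library in turn. Its exons overlap those of Gm10876 on the other strand. Me2, the mitochondrial malic enzyme that makes pyruvate from malate, was at 38.1 and 38.2 CPM in NC and at 35.2 and 29.7 CPM in KO, or -0.23 on the log2 scale (SE 0.11, adjusted p = 0.104) that passed without KO 1 (-0.36, adjusted p = 0.0286).

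Glutamine and glutamate genes held the largest fall of the set. Glud1 encodes the mitochondrial glutamate dehydrogenase, which turns glutamate into 2-oxoglutarate and ammonia. It was at 184 CPM in both NC libraries and at 119 and 104 CPM in KO, or -0.72 on the log2 scale (SE 0.09, 95% interval -0.91 to -0.53, adjusted p = 1.18e-06). The KO libraries differed by more than the NC libraries but stood far below them. Only 3.88% of the genes tested had a lower log2 fold change. Glud1 spans bases 34310727 to 34345265 of chromosome 14 (plus strand) and shares exons with no other gene, and like Pcx it passed under each of the 13 alternatives (-0.82 to -0.63).

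Gls2 encodes the glutaminase isoform typical of liver. It was at 6.95 and 6.21 CPM in NC and at 10.6 and 11.6 CPM in KO, or 0.76 on the log2 scale (SE 0.18, adjusted p = 0.00178). The groups were apart in CPM, on 79 and 86 counts (NC) and 139 and 157 counts (KO), the lowest counts of the tested genes along with Pcx. In TPM they were nearer, at 3.59 and 6.4 in NC and 8.66 and 6.83 in KO, since the effective length the authors assigned varied between 1084 and 2062 bases. With those lengths in the fit the value was 0.59 and not past the threshold (adjusted p = 0.137). Gls2 overlaps exons of Spryd4 on the other strand.

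The aspartate aminotransferases exchange glutamate and aspartate on either side of the inner membrane. The cytosolic Got1 was at 186 CPM in both NC libraries and at 157 and 154 CPM in KO, or -0.26 on the log2 scale (SE 0.09, adjusted p = 0.0247). The call was lost without NC 1 (-0.26, adjusted p = 0.0996), NC 2 (-0.26, 0.103) or KO 2 (-0.25, 0.0717). With effective-length offsets the value was -0.19 (adjusted p = 0.168) and in limma on log2(TPM + 1) it was -0.11 (adjusted p = 0.496). The mitochondrial Got2, which overlaps Gm45760 on the other strand, had -0.20 (95% interval -0.39 to -0.013, adjusted p = 0.0855). Per length Got2 was 1.39 and 1.31 times Got1 in NC and 1.33 times in both KO libraries, so the pair kept its ratio within the replicate spread.

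**Figure D3:**
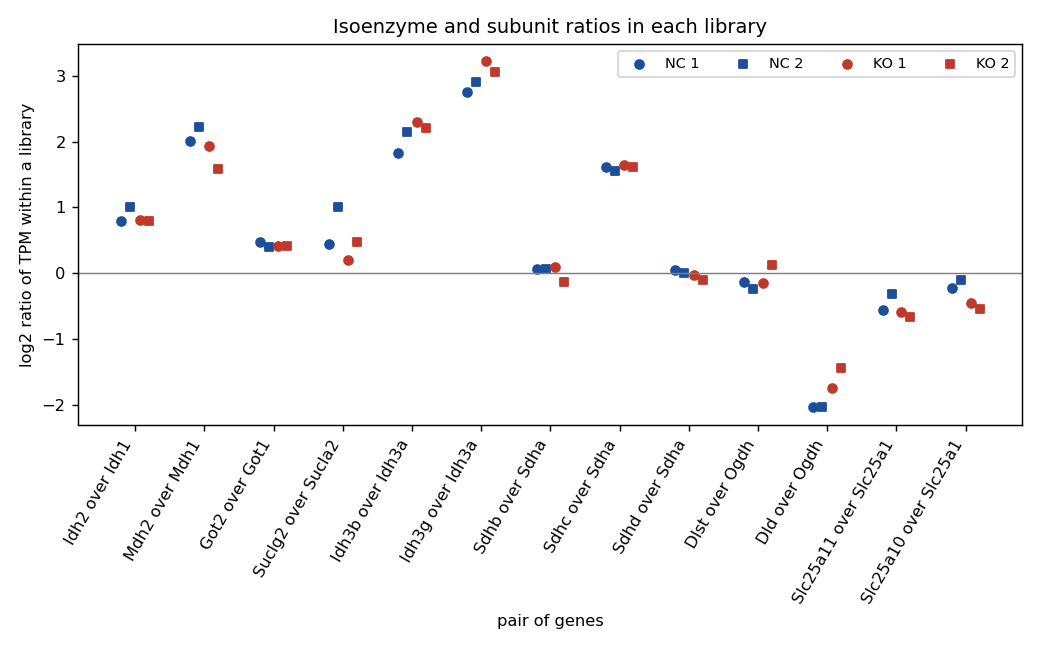
Log2 ratio of deposited TPM between pairs of isoenzymes, subunits or carriers within each library, NC in blue and KO in red. Dld over Ogdh and both Idh3 ratios lie higher in KO and Mdh2 over Mdh1 and Slc25a10 over Slc25a1 lower, while Got2 over Got1 and Sdhc over Sdha stay within a narrow band.

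Of the 3 carriers, 1 fell (33.3% called, against 37.9% of all genes). Slc25a10 encodes the dicarboxylate carrier, which exchanges malate or succinate for phosphate. It was at 133 and 137 CPM in NC and at 112 and 105 CPM in KO, or -0.32 on the log2 scale (SE 0.09, adjusted p = 0.00762). The groups did not overlap, and without NC 2 the value was -0.30 (adjusted p = 0.0579). Slc25a10 overlaps exons of Gm11788 on the other strand. Slc25a11, the oxoglutarate carrier of the malate-aspartate shuttle, had -0.23 (SE 0.10, adjusted p = 0.0632), and -0.30 without KO 1 (adjusted p = 0.0302); it overlaps Rnf167 on the other strand.

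Slc25a1, the citrate carrier that feeds cytosolic lipid synthesis, had the value nearest 0 of the set. It was at 121 and 119 CPM in NC and at 120 CPM in both KO libraries (log2 fold change 0.002, 95% interval -0.19 to 0.19), a sign that turned with no filter on low counts (-0.012) and with length offsets (-0.011). Per length Slc25a10 was 0.856 and 0.928 times Slc25a1 in NC and 0.729 and 0.688 times in KO.

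By compartment, the calls lay mostly among mitochondrial proteins, which make up most of the set. Of the 26 tested genes for mitochondrial enzymes and carriers, 11 fell and 2 rose (42.3% and 7.69%, against 18.2% and 19.7% of all genes; median log2 fold change -0.23). Of the 4 tested genes for cytosolic enzymes (Aco1, Idh1, Mdh1 and Got1), Got1 fell (25% called, against 37.9% of all genes) and the median was -0.13. Whether the compartments differ was not tested.

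Other genes of the same metabolism were taken from lists outside the set. Among 24 genes for the handling of glutamine, glutamate, proline, aspartate and alanine, 21 were tested, and 5 rose and 7 fell (23.8% and 33.3%, against 19.7% and 18.2% of all genes; median log2 fold change -0.065). Slc38a3, a glutamine transporter of periportal hepatocytes, rose from 31 and 29 counts in NC to 125 and 166 in KO, or 2.19 on the log2 scale (SE 0.25, adjusted p = 5.34e-08). Pycr1, which closes proline synthesis from glutamate, had 0.94, Gpt2, the mitochondrial alanine aminotransferase, 0.46, and Oat, ornithine aminotransferase, 0.39, each higher in KO and past 0.05. Glul, glutamine synthetase, fell from 285 and 345 TPM in NC to 161 and 142 TPM in KO (log2 fold change -0.76, SE 0.09, adjusted p = 5.61e-07). Exons of Mir8114 and Teddm2 overlap it. The aspartate-glutamate carrier gene Slc25a13 (-0.63), the serine synthesis gene Psat1 (-0.55) and the glutamate carrier gene Slc25a22 (-0.47) also fell.

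A second list held 26 symbols for other enzymes of the cycle, complex II assembly, lipoate and iron-sulphur clusters, with 25 entries tested, of which 2 were higher and 4 lower (24% called, against 37.9% of all genes; median -0.10). The lower genes were Glrx5 (-0.50), Bola3 (-0.50) and Fdx1l (-0.73), which serve iron-sulphur cluster assembly, and Me1 (-0.29), the cytosolic malic enzyme, Fdx1l overlapping exons of Gm38431 and Gm49373 on its own strand and Me1 those of A330041J22Rik on the other. The cluster assembly genes Iscu (-0.105, adjusted p = 0.586) and Nfs1 (-0.15, adjusted p = 0.311) of the same list were not called. D2hgdh, which oxidises D-2-hydroxyglutarate to 2-oxoglutarate, was higher by 0.78 (SE 0.23, adjusted p = 0.00732). The other higher call was the second gene entry named Nnt, with 0 counts in each NC library and 68 and 22 in KO. Its value is uncertain, as described below. All 4 tested complex II assembly factor genes (Sdhaf1 to Sdhaf4) missed the threshold.

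The last list held 23 genes of mitochondrial import, chaperones, porins, DNA maintenance and dynamics. All were tested, 10 fell (43.5%, against 18.2% of all genes), none rose (against 19.7%), and the median was -0.17. Tomm22 (-0.76) and Tomm40 (-0.70) of the outer-membrane import pore, the prohibitin gene Phb2 (-0.58) and the chaperonin gene Hspd1 (-0.51) had the lowest p; Tomm40, Phb2 and Hspd1 overlap other genes' exons. The summed level of this list was 3142 to 3292 TPM in NC and 2406 to 2754 TPM in KO. That of the 32 cycle, anaplerosis and glutamine genes was 3150 and 3225 TPM in NC and 2991 and 2697 TPM in KO, so both sums were lower in both KO libraries, and KO 2 was lowest in both. Whether the set fell more or less than mitochondrial genes at large was not tested.

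**Figure D4:**
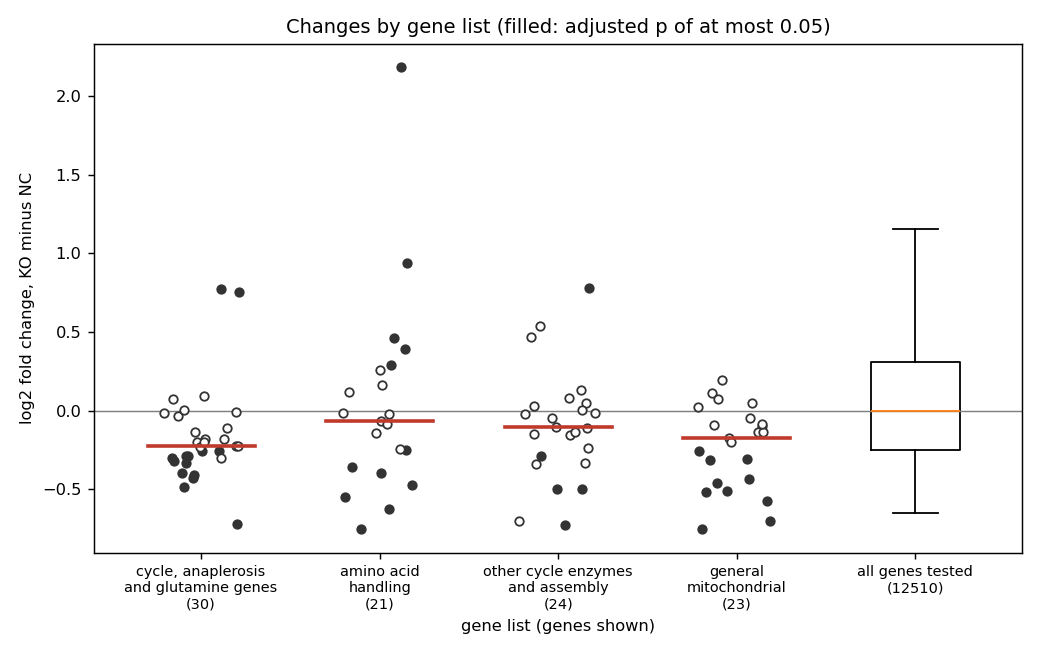
Log2 fold change, KO minus NC, of the tested genes of the set and of 3 other lists; filled points have an adjusted p of at most 0.05, red lines are medians, and the box shows all 12510 genes tested (quartiles, whiskers at the 5th and 95th percentiles). The medians of the 4 lists lie below that of all genes, at -0.23 for the set and -0.17 for general mitochondrial genes, and the second gene entry named Nnt is left out.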

How the data were processed

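RNA of 2 NC and 2 KO samples was extracted with TRIzol, treated with DNase and made into directional libraries, per the labels' protocols. The authors' deposited expected counts are estimated reads per gene, not normalised, and the deposited TPM are scaled by effective length, per the file headers. The submitters' processing notes name STAR, RSEM, DESeq2, GRCm38 and mm10; versions, annotation and strand setting are not given in the sources used here. RSEM divides reads between near-identical genes and isoforms, so pseudogenes, overlapping genes and isoform estimates can shift counts and effective lengths.

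Expected counts were rounded, filtered with filterByExpr (12510 genes kept), scaled by TMM (0.981 to 1.021) and compared with edgeR's quasi-likelihood test (edgeR 4.0.16, R 4.3.3), group as the only term, with Benjamini-Hochberg adjustment over all genes tested. Standard errors came from the fitted weights and moderated quasi-dispersion (prior degrees of freedom 25.8). In counts simulated from the mean levels of these libraries, 50.8% of 63 genes changed by 0.5 on the log2 scale were called with the right sign. For 70 genes changed by 1 the share was 92.9% (12341 genes tested). The simulation gave all genes the same dispersion and changed far fewer genes than the 4741 called here. Its shares therefore need not hold for these data. Intervals include sampling of reads and the dispersion shared by these libraries, nothing more. All 32 genes matched GENCODE M21 on GRCm38, the source of coordinates and overlaps. All 32 genes are named. From each list outside the set, up to 4 called genes per direction with the lowest p were named. In the second of these lists, uncalled genes of cluster and complex II assembly and the first Nnt entry were also named. The members, lists and motifs were chosen with earlier results of these data known. Alternatives were other scalings, no filter, DESeq2 1.42.0, robust estimation, limma 3.58.1 on log2(TPM + 1) and log2(TPM + 0.1), a replicate block, each library left out, and effective-length offsets, the last added after seeing the data. Replicates differed by more than sampling noise (chi-square over degrees of freedom 7.15 between NC libraries and 10 between KO libraries), so none was counted as a repeat.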

Additional observations from a re-analysis of the deposited data

How the results depend on the processing

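With limma on the deposited TPM, log2(TPM + 1) and log2(TPM + 0.1) called 2158 and 2099 genes, against 4741, and 1 higher and 2 lower genes of the set in both (Pcx, Glud1 and Suclg2), with set medians of -0.141 and -0.143; the cause was not tested. On that scale the median of all genes was 0.060 and 0.070. With effective-length offsets 2893 genes passed, 1 higher and 9 lower in the set. The fits without 1 library gave 6 to 15 lower genes, 2 higher genes, and 3507 to 4488 genes in all. DESeq2 called 3217 genes, 2 higher and 8 lower in the set. Of the 14 called genes, 2 (Glud1 and Pcx) passed under all 13 alternatives, 7 were called without any 1 library, and none changed sign. Of the 16 others, 4 passed under some alternative and 4 changed sign: Idh2 (0.013 with upper-quartile scaling, 0.047 and 0.048 on TPM, -0.075 to 0.046 without 1 library), Dld (0.009, 0.105 and 0.111 in the same fits, 0.039 with length offsets, -0.055 to 0.018 without 1 library), Mdh1 (0.024 in both TPM fits, -0.137 to 0.065 without 1 library) and Slc25a1 (-0.012 with no filter, -0.011 with length offsets, -0.012 to 0.010 without 1 library). With the replicate number as a block 5006 genes passed, with 2 higher and 12 lower in the set and a median of -0.228. No call in the set changed. The deviations of same-numbered samples from their group means correlated at -0.012. With 2 libraries a group both pairs give this same value. It therefore cannot show whether same-numbered samples share a culture or preparation. With standard errors of 0.09 to 0.18, the smallest called change in the set was -0.26 (Got1). No alternative applied to the ratios between genes, which carry no test.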

Other observations

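The symbol Nnt, the mitochondrial transhydrogenase that links NADH and NADPH pools, has 2 gene entries that share exons on the same strand of chromosome 13. The first (119335448 to 119408997) took 447 and 666 counts (NC) and 566 and 519 counts (KO), or -0.11 on the log2 scale (SE 0.11, adjusted p = 0.476). The second (119335528 to 119408952) took no counts from NC, with 0 in each library, against 68 and 22 from KO, and edgeR's quasi-likelihood test gave it an adjusted p of 1.03e-06. How RSEM divided reads between the entries cannot be seen in the files, so the second value is uncertain.

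Effective lengths moved with the group for Suclg2 (log2 change 0.27, KO minus NC, with no overlap of the groups) and by 0.13 or less in size for the other 29 tested genes. Suclg2 therefore fell by 0.50 in mean log2 TPM and by 0.29 in the count fit. In Gls2 the length varied more between replicates (2062 and 1084 bases in NC, 1410 and 1889 in KO) than between groups (log2 change 0.13).

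Between replicates the 30 tested genes differed by a median of 0.0606 (log2 CPM) within NC and 0.0805 within KO, against 0.131 and 0.137 over all genes. Across groups the median difference of these genes was 0.208 to 0.273, against 0.265 to 0.321 over all genes. KO 2 lay further from both NC libraries than KO 1 did, at 0.273 and 0.268 against 0.221 and 0.208.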
